A study of Mus musculus with 21 samples.

Results

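The comparison set spiral ganglion neurons (SGNs) picked at E15.5 against cochlear glial cells picked at P8, where E stands for the embryonic and P for the postnatal day. Its members were the genes whose CPM (the counts of a gene scaled to a common library total of 1e6) exceeded 1 in all 3 libraries of at least 1 of these groups, 13724 of the 17531 genes fitted over the whole series and of 52550 in the deposited table. Of these members, 9693 passed in both groups, 2972 passed through the SGNs alone and 1059 through the glia alone. Genes shared by the immature neurons and the glia were kept as members and are described after those that differed.

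Bulk RNA-Seq of mouse inner ear cells on the C57BL/6 background was available for 7 groups of 3 libraries, of which the P8 SGNs are used here for side-by-side values. Their values are set against the same 3 glial libraries, so the comparisons of both ages with glia are not independent. SGNs carried ShhCre/+; Rosa26-CAG-loxp-stop-loxp-tdTomato/+, and the glia carried vGlut3-iCreER/+ with the same tdTomato reporter, after tamoxifen at P2 and P3. Cells with red fluorescence were picked by hand after a pronase digestion. For the glia only the tissue of the ganglion was taken, with the aim of leaving behind the inner hair cells that this driver also labels. The libraries held 69, 90 and 92 neurons and 125, 86 and 101 glial cells. Cell type, age and Cre driver differed between the groups together, so their parts in any difference cannot be told apart. In bulk samples, fewer cells of a type and less RNA per cell cannot be told apart either. The labels do not say that replicates came from separate animals, so the p-values measure the spread between these libraries, which may be technical.

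SGNs are the bipolar neurons that carry signals from hair cells to the brainstem. At E15.5 they have left the cell cycle and extend processes toward the organ of Corti, before the onset of hearing. Schwann cells wrap their axons in myelin and satellite glia cover their cell bodies, and both derive from the neural crest, while the neurons arise from the otic epithelium. Neurons and Schwann cells meet through axonal neuregulin and glial ErbB receptors, through adhesion molecules and through the basal lamina that the glia lay down.

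Each library held between 10368240 and 19759856 counts on genes, and 3 counts, taken as the upper limit for a gene with none, equaled between 0.152 and 0.289 CPM. Of the counts from 1 to 20, between 67.2% and 69.6% were even in the SGN libraries and between 71.3% and 75.0% in the glial libraries, so a sequenced fragment may have been counted as 2 reads, and the limits would then be higher. Mitochondrially encoded genes took between 9.57% and 13.5% of the counts. Levels of known markers were then set against the labels. Levels are given in TPM (counts divided by gene length and scaled to a common total). Foxd3, a factor of crest-derived glia, was at 236, 309 and 242 TPM in the glia and at 0.736, 6.39 and 9.17 TPM in the SGNs. Slc17a6, the vesicular glutamate transporter vGlut2, was at 54.1, 60.4 and 80.7 TPM in the SGNs and at 52.4, 2.83 and 2.84 TPM in the glia, and Lypd1, a marker of SGNs, was at 129, 58.9 and 159 TPM against 19.2, 10.2 and 1.98 TPM. Glial replicate 1 was the highest of the glial libraries for both of these neuronal genes. Lypd1 was called higher in the SGNs, except without glial replicate 1 or 2, Slc17a6 was called only without glial replicate 1 among the fits that left out a library, and Foxd3 was called higher in the glia.

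Markers of other cochlear cells were present in both groups. Connective tissue markers summed to between 907 and 1587 TPM in the glia and between 101 and 192 TPM in the SGNs, and Col3a1, Col1a2 and Postn, 3 of the 9, were called higher in the glia by limma and none by edgeR or DESeq2. Supporting cell markers ranged from 15.1 to 385 TPM in the glia and from 109 to 167 TPM in the SGNs, and none of 9 was called in either direction by limma, edgeR or DESeq2, with 2 higher in the SGNs and 0 higher in the glia at an unadjusted p under 0.05. Of 7 endothelial markers only Emcn was a member, at 22.9, 45.1 and 124 TPM in the glia, and it was called higher there without glial replicate 1. Cd68 was the single member among 9 macrophage markers, at 147, 159 and 1.67 TPM in the glia, and it was called higher there without glial replicate 3. Among single markers that were members, Alas2 of erythroid cells was higher in the SGNs, a call lost without glial replicate 2, and so was Mog of oligodendrocytes, not called by edgeR or DESeq2, while Pmel of melanocytes was higher in the glia. The blood cell markers summed to 501 TPM in SGN replicate 1, to 7.88 TPM or less in the other 2 SGN libraries and to 1.61 TPM or less in the glia. None of 5 sex-linked genes was called in either direction by limma, edgeR or DESeq2, with 1 higher in the SGNs at an unadjusted p under 0.05. The part of these cells in the differences below was not tested.

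By limma-voom, with a threshold of 4-fold and an adjusted p of 0.01, 2762 members (20.1%) differed, against 2868 (16.4%) over all genes of the fit. Of these, 1676 (12.2% of members) were higher in the SGNs and 1086 (7.91%) were higher in the glia. The median log2 fold change of the called genes was 4.29 on the neuronal side and -3.84 on the glial side. Among the 9693 members that passed in both groups, where expression in only 1 group cannot set the direction, 1293 (13.3%) were called, of which 578 (5.96%) were higher in the SGNs and 715 (7.38%) in the glia. Without regard to the test, all SGN libraries lay above all glial libraries by CPM in 3370 members (24.6%), and all glial libraries above all SGN libraries in 2065 (15.0%). A gene was called common when the 95% interval of its log2 fold change lay within 2-fold either way and its CPM exceeded 10 in all 6 libraries. That held for 1297 members (9.45%), or 25.5% of the 5079 members expressed at that level, and the other 9665 members were neither called nor common. The larger number on the neuronal side was not seen without glial replicate 3, when 1192 members were higher in the SGNs and 1248 in the glia, while without glial replicate 1 the counts were 1805 and 1263.

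By the same thresholds, P8 SGNs were higher than these glia in 1870 members (13.6%) and lower in 1305 (9.51%), and E15.5 SGNs were higher than P8 SGNs in 395 (2.88%) and lower in 483 (3.52%). The P8 SGN libraries had no part in the choice of members. Genes expressed in P8 SGNs alone are thus missing from these counts, while those of E15.5 SGNs alone are included. The balance of directions in these counts depends on that filter.

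**Figure D1:**
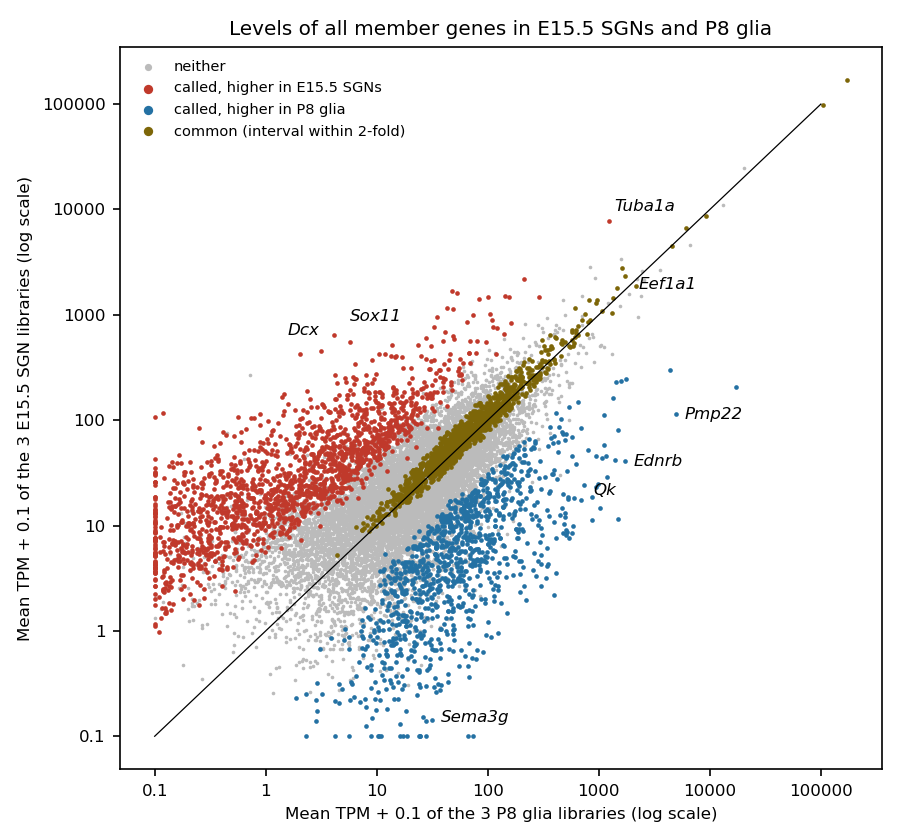
Mean TPM + 0.1 of every member of at least 200 bases in the 3 P8 glial libraries (x axis, log scale) against the 3 E15.5 SGN libraries (y axis, log scale), with points colored by call and a line of equality. Genes called higher in the SGNs spread to the left edge, where the glia held no counts, and the common genes follow the line up to the most abundant transcripts.

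The genes with the largest differences on the neuronal side were present in all SGN libraries at 7.47 TPM or more and were at 15.8 TPM or less in the glia. Dcx (X:143855842-143933311, GRCm38), which encodes the microtubule-binding protein doublecortin of migrating and growing neurons, was at 492, 313 and 553 TPM in the SGNs and at 9.11, 0.0465 and 0 TPM in the glia, a log2 fold change of 10.71 ± 1.25 (SE, n = 3 a side, adjusted p = 2.06e-06). Stmn4, a stathmin that binds tubulin dimers, was at 480, 395 and 399 TPM against 5.24, 0.614 and 0 TPM (8.91 ± 0.84, adjusted p = 1.68e-07). Glial replicate 1 was the highest of the glial libraries for both genes and still lay far below the lowest SGN library.

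Other genes of this group had between 0 and 2 counts over the 3 glial libraries. Stk32b, a serine/threonine kinase, was at 31.3, 25.1 and 35.2 TPM in the SGNs and had no count in any glial library, so its mean CPM was at least 128-fold higher, taking the limit of 3 counts in each glial library. Gpc2, a glypican of growing axons, was at 16.3, 13.4 and 12.6 TPM and likewise had no glial count, a difference of at least 73.2-fold. Nhlh2, a basic helix-loop-helix factor of newborn neurons, had 1981 counts over the SGN libraries and 2 over the glial libraries, a CPM ratio of 851 with a 95% counting interval of 235 to 7032. Ptgir, the prostacyclin receptor, had a ratio of 713 with an interval of 197 to 5893. If fragments were counted as 2 reads, these bounds would be lower and these intervals wider. These bounds and intervals cover counting error only.

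The same rule named the transcriptional regulator Zfp57, the sodium channel Scn11a, Nyap2, Pirt, Psd2 and Csmd3. Zfp57, which holds methylation at imprinted loci, was at 129, 89.9 and 104 TPM in the SGNs and at 1.37, 0 and 0 TPM in the glia (9.28 ± 1.33, adjusted p = 2.14e-05). Scn11a, known from pain-sensing neurons, was at 43.1, 32.7 and 42.6 TPM against 0.175, 0 and 0 TPM (9.27 ± 1.37, adjusted p = 3.07e-05). Pirt, a membrane protein that modulates TRP channels in sensory neurons, was at 165, 189 and 163 TPM against 15.8, 0 and 0 TPM. Its call (8.84 ± 1.90, adjusted p = 0.00114) was lost by edgeR and without glial replicate 2 or without glial replicate 3.

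**Figure D2:**
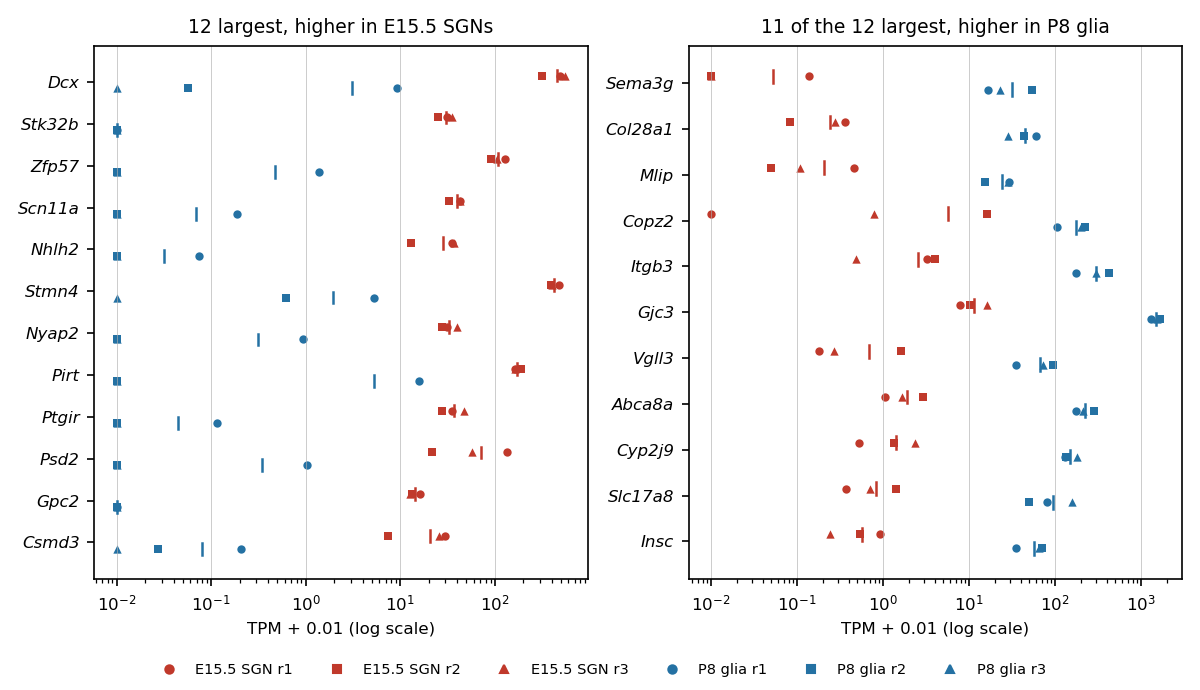
Levels as TPM + 0.01 (log scale) of the 12 protein-coding genes with the largest differences toward the SGNs and 11 of those toward the glia, with a point for each library and a bar for the mean of the 3 libraries. The genes were chosen to have no overlap between the groups, which by CPM held for 24.6% of all members toward the SGNs and 15.0% toward the glia. Glial replicate 1 (blue circle) holds the highest glial level of most genes on the neuronal side.

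Transcription factors of SGNs and neurogenesis had the highest median log2 fold change of the gene lists that held more than 3 members. Of 38 factors 29 were members, 21 were called higher in the SGNs and 3 in the glia, none was common, and the median log2 fold change was 4.99 against 0.12 over all members. Only 15 of the 29 passed in both groups, with 13 through the SGNs alone and 1 through the glia alone. The filter favors the direction of genes that passed through 1 group alone, and the list medians include them. Over all members, 12.2% were higher in the SGNs, 7.91% higher in the glia and 9.45% common, beside the counts of each list. Isl1, a LIM-homeodomain factor of sensory neurons, was at 247, 186 and 312 TPM in the SGNs and at 15.2, 2.38 and 1.06 TPM in the glia (5.67 ± 0.76, adjusted p = 1.07e-05). Pou4f1, a POU factor of sensory neurons, was at 276, 119 and 174 TPM against 5.71, 0.945 and 0.149 TPM (7.01 ± 0.89, adjusted p = 5.87e-06). Sox11, an SRY-box factor of immature neurons, reached 724, 308 and 630 TPM against 10.1, 6.59 and 0.336 TPM (6.96 ± 0.91, adjusted p = 7.27e-06). All 3 genes were higher in every SGN library than in any glial library.

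Gata3, needed for SGN development, was at 226, 194 and 406 TPM in the SGNs and at 11.4, 9.17 and 8.51 TPM in the glia (4.48 ± 0.50, adjusted p = 1.27e-06). Neurod1, a proneural factor, had 1559 counts in the SGNs and 2 in the glia. Prox1, which is known to regulate SGN target innervation, differed less, with 49.4, 21 and 57 TPM against 26.1, 6.98 and 3.25 TPM, and was not called (1.68 ± 0.61, adjusted p = 0.038), while in P8 SGNs its log2 fold change over the same glia was 4.10. Exons of Gata3, Neurod1 and Prox1 overlap genes of the opposite strand, and since the strand setting of the counting is not given in the sources used here, reads of such pairs cannot be told apart. The same holds for Lypd1, Srrm4, Elavl1, Nrg1, Erbb2, Celf2, Ptbp1, Ptbp3, Nefm, Tuba1b, Unc5c, Plxna1, Plxnb1, Syp, Lgi4, Lama2, Sorcs1, Notch1, Dner, Dlk2, Sptbn1, Sptbn4, Jun and Hmgcs1.

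The 3 factors higher in the glia were Rest, Eya2 and Bhlhe22. Rest (5:77265491-77286432, GRCm38) encodes the repressor that keeps neuronal genes silent in non-neuronal cells, and was at 13.9, 17.6 and 19.6 TPM in the SGNs and at 90.4, 52.1 and 206 TPM in the glia (-2.75 ± 0.46, adjusted p = 0.000116). The groups did not overlap. Eya2, a cofactor of sine oculis homeobox proteins, was at 1.73, 0.358 and 0.436 TPM in the SGNs and at 24.5, 21.4 and 81.8 TPM in the glia (-5.85 ± 1.15, adjusted p = 0.000505). Bhlhe22 was called at an adjusted p of 0.00974, a call lost without any 1 SGN library and without glial replicate 2 or 3.

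REST binds the RE1 element, and its core (CAGCACC, then 2 bases of any kind, then GGACAG) was searched on both strands of the RefSeq promoters of GRCm38.p6, which run from 250 bases before to 50 bases after each gene start. This core was chosen after shorter and longer forms had been searched. It was present in 11 of 27025 promoters (0.0407%), 7 of them of members. Promoters were held for 9308 of the 11815 protein-coding members (78.8%), which is below the share at which called and other genes could be compared. The 7 windows of members are shown because REST is known to bind this element. Capitals mark the RE1 core.
Fbll1 (chr11:35799052-35799078, plus strand): tccagtCAGCACCAGGGACAGctacct
Lca5 (chr9:83441284-83441310, plus strand): ggagccCAGCACCCAGGACAGaccgaa
Sptbn4 (chr7:27396276-27396302, plus strand): cggctcCAGCACCACGGACAGttcccg
Ttc9b (chr7:27653936-27653962, minus strand): gagcatCAGCACCGGGGACAGcgcgcc
Lhx3 (chr2:26208270-26208296, minus strand): ctccttCAGCACCGCGGACAGcgccag
Ogdhl (chr14:32321910-32321936, plus strand): ggaggtCAGCACCTCGGACAGcgaggg
Osbp2 (chr11:3774787-3774813, plus strand): ccgcttCAGCACCGCGGACAGcggcca

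Of these 7 genes, limma called 4 higher in the SGNs, 0 higher in the glia and 0 common, beside 12.2% and 7.91% of all members in each direction, and nothing is read from so few genes. Fbll1, a fibrillarin-like gene, was at 32.3, 15.3 and 52.7 TPM in the SGNs and at 0.461, 0.783 and 0 TPM in the glia (6.03 ± 0.87, adjusted p = 2.25e-05). Sptbn4, the spectrin of the axon initial segment and nodes, was at 11.8, 7.63 and 128 TPM against 1.41, 0.123 and 0.073 TPM (6.17 ± 1.56, adjusted p = 0.00416), and its call was lost without any 1 glial library. Lca5 and Ttc9b had log2 fold changes of 4.75 and 3.19 (adjusted p of 0.000306 and 0.00489 by limma), and Ttc9b was not called by edgeR or DESeq2, without SGN replicate 3 or without glial replicate 2 or 3. Lhx3, Ogdhl and Osbp2 were not called by limma, with log2 fold changes of -3.34, 2.73 and 0.96, although Ogdhl was called higher in the SGNs without SGN replicate 3, by edgeR and by DESeq2, and Lhx3 higher in the glia by DESeq2. A match is a description of these letters and not a binding site.

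Among 25 neuronal RNA-binding proteins and splicing factors, all of them members, 12 were higher in the SGNs, 2 in the glia and 2 common. In both groups 16 of the 25 passed, and 9 passed through the SGNs alone. The neuronal Elav genes, which bind AU-rich transcripts, were high in the SGNs. Elavl4 was at 512, 341 and 370 TPM against 25.9, 12.7 and 1.62 TPM in the glia (5.08 ± 0.59, adjusted p = 1.99e-06), and Elavl2 and Elavl3 had log2 fold changes of 6.18 and 6.11. Their ubiquitous relative Elavl1 was at 69.1, 39.7 and 48.1 TPM against 63.8, 74.9 and 73.8 TPM and was not called (-0.74 ± 0.18). Srrm4, the activator of neuronal microexons, was at 97, 82 and 109 TPM against 8.24, 1.97 and 1.33 TPM (4.65 ± 0.50, adjusted p = 9.07e-07).

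Qk, the quaking protein that controls splicing of myelin transcripts, ran the other way. It was at 18.5, 30.4 and 24.3 TPM in the SGNs and at 695, 756 and 760 TPM in the glia, and its small error (-5.16 ± 0.26) gave an adjusted p of 5.38e-11. Celf2 was the other gene higher in the glia, at 16.3, 13.9 and 18.4 TPM against 49.9, 76.4 and 43.8 TPM (-2.02 ± 0.23, adjusted p = 1.32e-06), close to the threshold of 4-fold, and its call was lost without glial replicate 2. Of the polypyrimidine tract binding proteins, which repress neuronal exons, Ptbp1 was at 67.4, 102 and 64.8 TPM against 250, 169 and 238 TPM and did not reach 4-fold (-1.76 ± 0.36, adjusted p = 0.000834) except without SGN replicate 2, whereas Ptbp2, the neuronal paralog, and Ptbp3 were common. Ptbp2 held 82.4, 63 and 63.5 TPM in the SGNs and 58.3, 44.2 and 169 TPM in the glia, with an interval of -0.92 to 0.25 for its log2 fold change. It was not common without SGN replicate 1 or 2 or without glial replicate 1 or 2.

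Genes of the axon cytoskeleton and outgrowth were mostly neuronal. Of 36 listed genes 35 were members, 24 were higher in the SGNs and 2 were common, with a median log2 fold change of 3.52. Of the 35, 30 passed in both groups and 5 through the SGNs alone. None was called higher in the glia by limma, edgeR or DESeq2, and 3 were higher there at an unadjusted p under 0.05. Gap43, a growth cone protein, was at 509, 1069 and 677 TPM in the SGNs and at 25.5, 63.4 and 271 TPM in the glia (3.27 ± 0.64, adjusted p = 0.000482). Gap43 was not called by edgeR or DESeq2. The neurofilament gene Nefm was at 1521, 1151 and 1560 TPM against 168, 67.3 and 16.8 TPM (4.12 ± 0.55, adjusted p = 1.01e-05). Both genes were higher in all SGN libraries, although the glial libraries spread widely among themselves.

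Some cytoskeletal genes differed between the embryonic and the older neurons. Stmn1, a stathmin of dividing and growing cells, was at 1412, 1389 and 1701 TPM in the E15.5 SGNs and at 156, 132 and 137 TPM in the glia (3.13 ± 0.31, adjusted p = 2.47e-07), while P8 SGNs differed from the glia by -0.04 ± 0.35 on the same log2 scale. The difference between E15.5 and P8 SGNs itself was 3.17 ± 0.25 (adjusted p = 9.13e-08 by limma). Nefh, the heavy neurofilament of mature axons, went the opposite way, at 33.4, 78 and 66.9 TPM in the E15.5 SGNs and at 139, 69.3 and 14 TPM in the glia. It was not called (-0.31 ± 0.82), but in P8 SGNs its log2 fold change was 4.72 ± 0.62, and between the ages it differed by -5.03 ± 0.58 (adjusted p = 3.82e-06 by limma).

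Tubulins were expressed in both groups, at summed levels of 13098 to 15652 TPM in the SGNs and 3110 to 4664 TPM in the glia. Of 14 members, 5 were higher in the SGNs (35.7%), 1 in the glia (7.14%) and 1 common. Tubb3, the neuronal beta-tubulin, was at 727, 938 and 656 TPM against 86.6, 5.36 and 5.98 TPM (5.19 ± 0.84, adjusted p = 8.24e-05). Tuba1a, the alpha-tubulin of developing neurons, was the most abundant of the family in both groups, at 7412, 8588 and 7108 TPM against 1460, 1147 and 1109 TPM (2.36 ± 0.26, adjusted p = 1.22e-06). Tuba1b, its neighbor on chromosome 15, was common at 1167, 1644 and 1055 TPM against 1138, 980 and 698 TPM, with an interval of -0.33 to 0.67. Tubb6 was the isotype called higher in the glia, at 1.62, 17.1 and 3.19 TPM in the SGNs and at 92.4, 80.4 and 150 TPM in the glia (-4.67 ± 0.80, adjusted p = 0.000133). Tuba1a and Tuba1b are near copies, so reads could be divided between them by the counting.

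Guidance genes were found on both sides. Of 53 ligands and receptors 47 were members, 15 were higher in the SGNs (31.9%), 7 in the glia (14.9%) and 4 common. In both groups 36 of the 47 passed, 9 passed through the SGNs alone and 2 through the glia alone. Among netrin receptors, Dcc was at 60.7, 32 and 42 TPM against 0.644, 0.511 and 0.0865 TPM (6.70 ± 0.91, adjusted p = 1.26e-05), and Unc5b, Unc5c and Unc5d had log2 fold changes of 5.10, 3.27 and 4.57, while the ligand Ntn1 was higher in the glia, at 1.73, 0.225 and 1.41 TPM against 10.9, 19.1 and 24.7 TPM (-4.55 ± 1.17, adjusted p = 0.0048). The call of Ntn1 was lost by edgeR, without any 1 SGN library and without glial replicate 3.

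Semaphorins divided by member. Sema3a, a repellent of sensory axons, was at 94.9, 29.4 and 89.7 TPM in the SGNs and at 2.45, 0.764 and 0.554 TPM in the glia (5.52 ± 0.83, adjusted p = 3.53e-05). Sema3b was at 3.82, 5.25 and 3.51 TPM against 290, 414 and 199 TPM (-6.38 ± 0.65, adjusted p = 4.28e-07). Sema3g (14:31217860-31230352, GRCm38) had 2 counts over the SGN libraries and 430, 832 and 300 counts in the glial libraries, a CPM ratio of 909 with a 95% counting interval of 251 to 7513 toward the glia, which would be wider if fragments were counted as 2 reads. Plexins Plxnb3 and Plxnd1 and the co-receptor Nrp2 were also higher in the glia, with log2 fold changes of -4.73, -4.78 and -2.93.

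Slit ligands and their receptors were also found in both groups. Slit3 was at 1.03, 4.72 and 1.24 TPM in the SGNs and at 69.8, 41.6 and 76.2 TPM in the glia (-5.27 ± 0.66, adjusted p = 4.61e-06), whereas the Slit receptor Robo1 was at 62.9, 57.8 and 91.8 TPM against 6.3, 15.6 and 37.7 TPM (2.13 ± 0.43, adjusted p = 0.000678). The Robo1 call was lost in 7 settings, among them edgeR, DESeq2, and the fits without SGN replicate 3 or glial replicate 1. The common genes of this list were Plxna1, Plxnb1, Plxnb2 and Ntng1. Plxnb1 was at 104, 94.5 and 106 TPM against 77.8, 83.2 and 93.5 TPM (interval -0.56 to 0.61), and in P8 SGNs it stood at -2.81 ± 0.38 from the same glia. Its level in the neurons differed between the ages by 2.84 ± 0.36 (adjusted p = 1.24e-05 by limma). Plxnb2 was not common without SGN replicate 3 or without glial replicate 1 or 2.

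Genes of vesicle release and glutamate loading were in part called higher in the E15.5 SGNs than in the glia. All 40 listed genes were members, 20 were higher in the SGNs, 1 in the glia and 2 common, and 24 were higher in the SGNs without glial replicate 1. In both groups 29 of the 40 passed, 10 passed through the SGNs alone and 1 through the glia alone. Sncg, the gamma-synuclein of sensory neurons, was at 1751, 1777 and 1533 TPM against 48.8, 87.7 and 5.74 TPM (5.46 ± 0.80, adjusted p = 2.81e-05). The active zone scaffold Bsn was at 83.6, 72.8 and 82.8 TPM against 5.96, 1.92 and 0.788 TPM (4.78 ± 0.58, adjusted p = 3.49e-06). The vesicle protein Syp was at 244, 250 and 261 TPM against 104, 8.81 and 6.36 TPM (3.17 ± 0.68, adjusted p = 0.00115) and was not called by edgeR. In each of these genes the SGN libraries lay above all glial libraries.

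Other genes of the release machinery were not called between the E15.5 SGNs and the glia. Snap25, the SNARE protein of the plasma membrane, was at 286, 240 and 287 TPM in the SGNs and at 293, 46.8 and 26.9 TPM in the glia (1.38 ± 0.52, adjusted p = 0.0463), and it was called without glial replicate 1. Cplx1, a complexin, was at 133, 208 and 107 TPM against 288, 39.9 and 19.8 TPM (0.64 ± 0.68, adjusted p = 0.502). Slc17a7, the vesicular glutamate transporter vGlut1, was at 16.6, 31.8 and 7.82 TPM against 36.2, 2.4 and 1.17 TPM (1.15 ± 1.01, adjusted p = 0.408). Glial replicate 1 was above every SGN library in all 3 genes. Against the same glia, P8 SGNs had log2 fold changes of 4.89 ± 0.45 for Snap25, 4.76 ± 0.57 for Cplx1 and 5.27 ± 0.87 for Slc17a7. Between E15.5 and P8 SGNs these genes differed by -3.51 ± 0.29, -4.12 ± 0.41 and -4.13 ± 0.56 in that order (adjusted p of 1.43e-07, 9.02e-07 and 2.50e-05 by limma).

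Slc17a8, which encodes vGlut3, was the gene of this list that was higher in the glia, at 0.363, 1.39 and 0.684 TPM in the SGNs and at 79.5, 49 and 158 TPM in the glia (-7.07 ± 1.59, adjusted p = 0.00167). Its promoter drives the Cre by which these glial cells were labeled. The call was lost without SGN replicate 3. Hair cell markers, of which Slc17a8 is also known as one, summed to between 173 and 378 TPM in the glia and between 598 and 751 TPM in the SGNs, where Pvalb, which is also known from SGNs, held 516, 582 and 658 TPM. Myo7a, the myosin of hair cells, was at 20.1, 12.4 and 24.7 TPM in the glia, and none of the 7 markers that were members was called higher in the glia by limma, 1 by edgeR and 2 by DESeq2, with 3 at an unadjusted p under 0.05.

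Voltage-gated channels included early and late members. Of 53 listed genes 50 were members, 23 were higher in the SGNs, 3 in the glia and 1 common. In both groups 30 of the 50 passed, 17 passed through the SGNs alone and 3 through the glia alone. Scn3a, the sodium channel of embryonic neurons, was at 86.8, 46.9 and 87.3 TPM against 5.28, 0.0472 and 0 TPM (8.34 ± 1.22, adjusted p = 2.64e-05). Cacna1b, the N-type calcium channel, was at 119, 75.1 and 146 TPM against 1.99, 0.237 and 0.14 TPM (7.60 ± 0.87, adjusted p = 1.75e-06). Hcn4, a hyperpolarization-activated channel, was at 53.8, 55.2 and 53.2 TPM against 3.45, 0.577 and 0.742 TPM (5.16 ± 0.64, adjusted p = 4.35e-06). Scn1a, a sodium channel of firing adult neurons, was at 3.79, 9.72 and 4.77 TPM against 24.9, 1.72 and 1.19 TPM (-0.00 ± 0.99), while in P8 SGNs its log2 fold change over the glia was 5.04 ± 0.78.

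The delayed rectifier genes Kcna1 and Kcna2 were higher in the glia. Kcna1 was at 29.2, 44.5 and 63.1 TPM in the SGNs and at 1201, 1002 and 1261 TPM in the glia (-4.94 ± 0.31, adjusted p = 1.21e-09). Kcna2 was at 20.3, 36.7 and 17.5 TPM against 187, 237 and 138 TPM (-3.21 ± 0.32, adjusted p = 3.3e-07). The groups were fully apart for both. For Kcna2, P8 SGNs stood at 0.17 ± 0.19 in log2 from the same glia, and the neuronal ages differed by -3.38 ± 0.30 (adjusted p = 2.86e-07 by limma). Kcna4 was the other channel gene higher in the glia and was lost without SGN replicate 2 or 3 and without glial replicate 2 or 3.

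**Figure D3:**
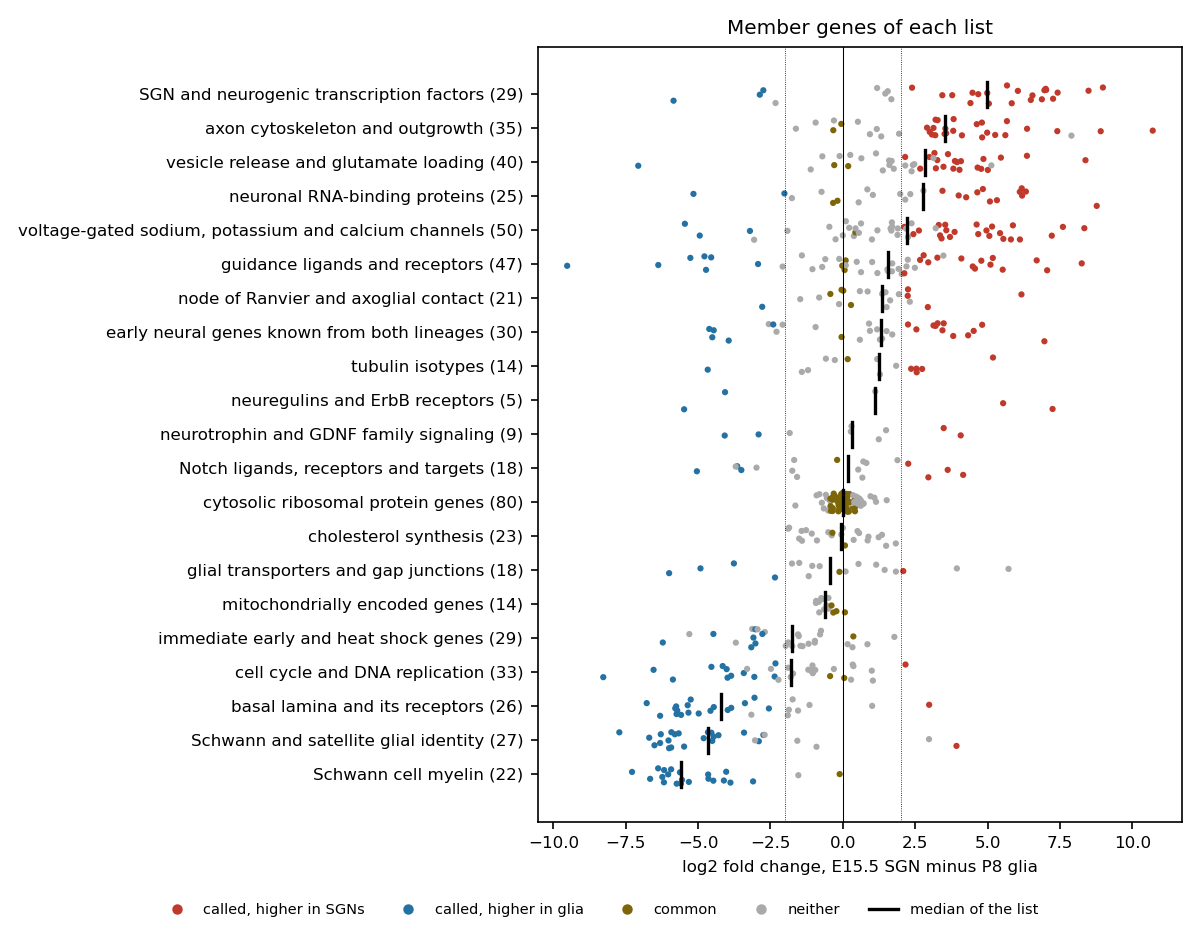
Log2 fold change (SGN minus glia, x axis) of each member gene in 21 lists ordered by their median (black bar), with the number of members in parentheses and points colored by call. Dotted lines mark 4-fold. Neuronal factors, cytoskeleton and vesicle genes lie to the right, myelin, glial identity and basal lamina genes to the left, and ribosomal protein genes at 0.

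On the glial side, the largest differences were in genes that the SGNs held at or below 16.2 TPM in every library. Gjc3 (5:137953461-137963098, GRCm38), the connexin of myelinating Schwann cells, was at 7.73, 10.3 and 16.2 TPM in the SGNs and at 1308, 1638 and 1537 TPM in the glia (-7.28 ± 0.67, adjusted p = 1.24e-07). Itgb3, the beta3 integrin, was at 3.24, 3.95 and 0.474 TPM against 173, 423 and 301 TPM (-7.45 ± 1.04, adjusted p = 1.62e-05). The rule also named the collagen Col28a1, the transporter Abca8a, the transcription cofactor Vgll3, Mlip, Copz2, Cyp2j9 and Insc, with log2 fold changes between -7.97 and -6.90, and Copz2 was not called by edgeR or by DESeq2.

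Genes of Schwann and satellite glial identity were higher in the glia in 21 of 27 members, with a median log2 fold change of -4.66 and 1 gene in the other direction. In both groups 19 of the 27 passed, 7 passed through the glia alone and 1 through the SGNs alone. Sox10, the factor that specifies crest-derived glia, was at 5.15, 10.4 and 39.3 TPM in the SGNs and at 673, 723 and 379 TPM in the glia (-5.67 ± 0.65, adjusted p = 1.67e-06). Egr2, the driver of myelination, was at 9.9, 28.4 and 48.3 TPM against 1334, 1235 and 986 TPM (-5.80 ± 0.65, adjusted p = 1.32e-06). Ednrb, an endothelin receptor of the crest lineage, was at 1.84, 47.2 and 74.4 TPM against 1681, 1855 and 1587 TPM (-6.51 ± 0.69, adjusted p = 7.4e-07). In these genes SGN replicate 1 was the lowest neuronal library. Fabp7, a fatty acid binding protein of immature and satellite glia, repeated that order, at 3.42, 167 and 319 TPM in the SGNs and at 1400, 1824 and 835 TPM in the glia (-4.46 ± 0.85, adjusted p = 0.000372). Without SGN replicate 1 the list held 19 genes higher in the glia.

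A few glial genes did not follow the list. Adam22, which encodes a receptor for the secreted glial protein Lgi4, was higher in the SGNs, at 163, 65.8 and 124 TPM against 30.5, 2.81 and 0.973 TPM (3.93 ± 0.71, adjusted p = 0.000248), while Lgi4 itself was at 0.809, 1.16 and 1.17 TPM against 82.5, 40.8 and 96.4 TPM (-6.29 ± 0.87, adjusted p = 1.46e-05). S100b, often used to mark Schwann cells, was at 20.8, 67.5 and 8.56 TPM in the SGNs and at 71.1, 88.5 and 25.9 TPM in the glia and was not called (-1.57 ± 0.81, adjusted p = 0.144). In P8 SGNs S100b averaged 302 TPM and was above the glia by 2.76 in log2. Sox9, a factor of early glia, was at 0.0838, 56.7 and 14.4 TPM in the glia, a spread at which it was not called (2.98 ± 1.67, adjusted p = 0.179).

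The myelin list had the lowest median of the gene lists that held more than 3 members, with 20 of 22 members higher in the glia and a median log2 fold change of -5.58. Through the glia alone 4 of the 22 members passed, and 18 passed in both groups. None was higher in the SGNs by limma, edgeR or DESeq2, nor at an unadjusted p under 0.05. Pmp22, a membrane protein of compact peripheral myelin, was at 3489, 5774 and 5531 TPM in the glia and at 58, 145 and 142 TPM in the SGNs (-5.63 ± 0.81, adjusted p = 2.42e-05), and Mbp, a myelin protein of the cytoplasmic face, at 889, 1264 and 701 TPM against 22.3, 17.9 and 29.6 TPM (-5.59 ± 0.52, adjusted p = 1.66e-07). P8 SGNs averaged 799 TPM of Pmp22 and stood at -2.22 in log2 from the glia. Drp2, the dystrophin-related protein of the Schwann cell surface, was the exception, common at 46.8, 39.3 and 52.7 TPM in the SGNs and 26.3, 53.3 and 63.1 TPM in the glia (interval -0.77 to 0.55). It was not common without glial replicate 1.

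Basal lamina genes and their receptors were higher in the glia in 18 of 26 members and in the SGNs in 1, Itga3. In both groups 22 of the 26 passed, and 4 passed through the glia alone. Lamc1, the gamma chain shared by most laminins, was at 27.7, 45.9 and 51.4 TPM in the SGNs and at 1436, 1558 and 1188 TPM in the glia (-5.33 ± 0.40, adjusted p = 1.05e-08). Lama2, the alpha chain of Schwann cell laminin, was at 1.4, 3.93 and 6.8 TPM against 285, 330 and 406 TPM (-6.78 ± 0.60, adjusted p = 7.81e-08). The laminin receptors Dag1 and Itga6 had the smallest errors of the list, with -4.46 ± 0.24 and -3.98 ± 0.21 (both at an adjusted p of 8.58e-11). Itga3, an alpha integrin chain, was at 16.1, 19.9 and 33.7 TPM in the SGNs and at 7.22, 0.722 and 1.83 TPM in the glia (2.98 ± 0.74, adjusted p = 0.00383), and was lost without SGN replicate 3 or without glial replicate 2 or 3. Agrn, which encodes the matrix protein agrin, was at 275, 176 and 334 TPM against 67, 171 and 119 TPM and stayed below 4-fold (1.01 ± 0.25, adjusted p = 0.00317).

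Of 18 members among glial transporters and gap junction genes, 4 were called higher in the glia and 1 in the SGNs, and 1 was common. These shares of 22.2% and 5.56% rest on few genes, beside 7.91% and 12.2% of all members. Kcnj10, the potassium channel of satellite glia, was at 8.23, 7.71 and 9 TPM in the SGNs and at 371, 631 and 411 TPM in the glia (-6.00 ± 0.54, adjusted p = 1.03e-07).

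Ligands and receptors known to act between axon and Schwann cell were found in different groups. The neuregulins Nrg1 (8:31814551-32884029, GRCm38) and Nrg3 were neuronal. Nrg1 was at 172, 105 and 195 TPM in the SGNs and at 10.3, 1.79 and 0.607 TPM in the glia (5.54 ± 0.66, adjusted p = 2.55e-06), and Nrg3 at 132, 75.2 and 87.1 TPM against 2.49, 0.173 and 0.205 TPM (7.25 ± 0.76, adjusted p = 5.88e-07). The receptors Erbb3 and Erbb2 were glial. Erbb3 (10:128567523-128589652) was at 11.5, 7.55 and 18.2 TPM against 412, 490 and 428 TPM (-5.48 ± 0.43, adjusted p = 1.27e-08), and Erbb2 at 7.39, 8.99 and 5.87 TPM against 106, 178 and 54.9 TPM (-4.07 ± 0.67, adjusted p = 9.58e-05). Egfr was not called (1.12 ± 2.21), and Nrg2, Nrg4 and Erbb4 did not pass the expression minimum.

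The neurotrophin list held 9 members. Ntrk3, the receptor of neurotrophin-3 in SGNs, was at 159, 106 and 126 TPM in the SGNs and at 9.83, 2.68 and 7.89 TPM in the glia (4.07 ± 0.39, adjusted p = 1.83e-07). Ntrk2, the receptor of BDNF, differed in the same direction but by less than 4-fold, at 83.3, 58 and 109 TPM against 33.4, 23.7 and 14.8 TPM (1.49 ± 0.25, adjusted p = 9.33e-05). Ngfr, the p75 receptor known from both neurons and Schwann cells, was higher in the SGNs, at 271, 419 and 327 TPM against 46.7, 3.93 and 70.1 TPM (3.48 ± 0.62, adjusted p = 0.000206). The sortilin family members Sorcs1 and Sorcs2 were higher in the glia, at log2 fold changes of -4.08 and -2.91.

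Of 18 Notch genes that were members, 3 were higher in the glia (1 without SGN replicate 3) and 4 in the SGNs. These shares of 16.7% and 22.2% rest on few genes, beside 7.91% and 12.2% of all members. On the neuronal side 1 was called without glial replicate 1, and 2 without SGN replicate 3 or without glial replicate 2 or 3. The receptors Notch1 and Notch2 lay on the glial side. Notch1 was at 1.06, 5.17 and 1.74 TPM in the SGNs and at 59.3, 75.8 and 52.3 TPM in the glia (-5.04 ± 0.81, adjusted p = 7.55e-05), and Notch2 at 2.09, 18 and 3.05 TPM against 45.5, 71.1 and 37.9 TPM (-3.51 ± 0.74, adjusted p = 0.000989), a call lost without SGN replicate 3. Dner, a Notch ligand of neurons, was at 161, 80.3 and 119 TPM in the SGNs and at 26.6, 5.48 and 8.54 TPM in the glia (2.95 ± 0.53, adjusted p = 0.000221). Jag2, Dlk2 and Hes6 were the other 3 on the neuronal side, and the calls of all 3 were lost without glial replicate 1. Jag2 was also lost without SGN replicate 3 or glial replicate 2, Hes6 without glial replicate 3, and Dlk2 without any 1 library other than SGN replicate 2.

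At the node of Ranvier and the axoglial contact, 4 of 21 members were higher in the SGNs, 1 in the glia and 4 common, and 7 were higher in the SGNs without glial replicate 1 and 2 without glial replicate 3. The shares of 19.0% and 4.76% lie near the 12.2% and 7.91% of all members, and nothing is read from these counts. Cntn2, a contactin of the juxtaparanode, was at 39.9, 69.1 and 45.3 TPM in the SGNs and at 9.92, 2.06 and 6.53 TPM in the glia (2.94 ± 0.48, adjusted p = 8.45e-05). Cadm1 and Nectin3, which encode adhesion molecules, and Epb41l3 and Sptbn1 of the membrane cytoskeleton were common, and Cadm1 (9:47530173-47857637, GRCm38) was at 182, 123 and 141 TPM against 131, 114 and 128 TPM (interval -0.38 to 0.30). Nectin3 was not common without glial replicate 2, nor Epb41l3 without SGN replicate 2 or 3 or without glial replicate 1. Gldn, which encodes gliomedin, was at 7.59, 6.87 and 3.65 TPM in the SGNs and at 28.7, 38 and 34.5 TPM in the glia (-2.79 ± 0.58, adjusted p = 0.000912). In P8 SGNs the same gene was above the glia, by 2.11 ± 0.32 (adjusted p = 2.47e-05 by limma), with a mean of 111 TPM.

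**Figure D4:**
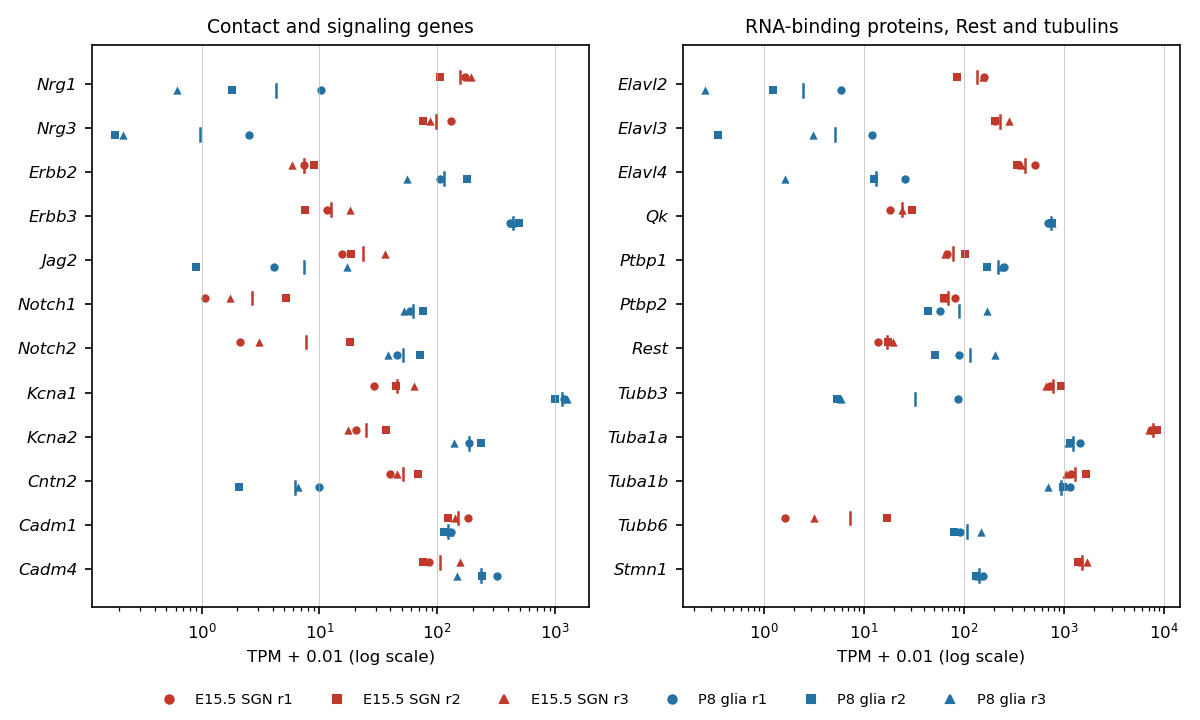
Levels as TPM + 0.01 (log scale) in each of the 6 libraries for genes of axon and glia contact and signaling (left) and for RNA-binding proteins, Rest and tubulins (right), with bars at the mean of each group. Neuregulins are high in the SGNs and ErbB receptors in the glia, and Cadm1, Tuba1b and Ptbp2 overlap between the groups.

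Several cell cycle genes, both of proliferation and of its inhibition, were higher in the glia. Of 33 members of the cell cycle list, 12 were called higher in the glia by limma, 1 in the SGNs and 2 common. The shares were 36.4% in the glia and 3.03% in the SGNs, beside 7.91% and 12.2% of all members. The count in the glia was 10 without glial replicate 1, between 8 and 15 over the fits that left out 1 library, 7 by edgeR and 12 by DESeq2. Mki67, a marker of cycling cells, was at 17.4, 16.5 and 4.04 TPM in the SGNs and at 301, 112 and 52.7 TPM in the glia (-4.01 ± 0.88, adjusted p = 0.00131), and Top2a at 10.3, 13.6 and 8.65 TPM against 136, 73.1 and 31.5 TPM (-3.06 ± 0.70, adjusted p = 0.00204). For both, glial replicate 1 was the highest library and the groups did not overlap, but the call of Top2a was lost without SGN replicate 3 or without glial replicate 1. Pcna was at 24.7, 52.1 and 41.6 TPM against 167, 146 and 195 TPM (-2.36 ± 0.32, adjusted p = 1.24e-05). Cdkn2d, an inhibitor of cyclin-dependent kinases, was the gene higher in the SGNs, at 130, 125 and 122 TPM against 31.7, 9.35 and 38.6 TPM (2.17 ± 0.47, adjusted p = 0.00122), a call lost without glial replicate 2. Cdkn2c and Cdkn1b, which also encode such inhibitors, were higher in the glia. Cdkn2c had the largest difference of the list, with a log2 fold change of -8.28, and was not called by edgeR. Cdkn1b stood at -2.33 ± 0.31 (adjusted p = 1.11e-05).

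Early neural genes known from both lineages divided into 12 of 30 members higher in the SGNs, 5 in the glia and 1 common. Cd24a, a surface antigen of immature neurons, was at 1435, 846 and 1159 TPM in the SGNs and at 67.3, 21.7 and 56 TPM in the glia (4.33 ± 0.53, adjusted p = 3.55e-06). Vcan, a chondroitin sulfate proteoglycan, was at 80.1, 35.8 and 148 TPM against 3.65, 3.87 and 1.21 TPM (4.52 ± 0.75, adjusted p = 9.72e-05), while P8 SGNs stood at -0.10 from the glia. Nes and Vim, the intermediate filaments of progenitors and glia, were glial. Nes was at 7.2, 4.19 and 1.07 TPM against 43.8, 84.1 and 79.2 TPM (-4.61 ± 0.92, adjusted p = 0.000567), and Vim at 167, 138 and 139 TPM against 669, 638 and 637 TPM (-2.40 ± 0.33, adjusted p = 1.61e-05).

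Several immediate early genes, which respond to activity and to tissue dissociation, were higher in the glia. Of 29 members of the immediate early and heat shock list, 7 were called there. None was called higher in the SGNs by limma, edgeR or DESeq2, and 2 were higher in the SGNs at an unadjusted p under 0.05. Fos was at 320, 158 and 254 TPM in the SGNs and at 1644, 1588 and 2027 TPM in the glia (-3.16 ± 0.48, adjusted p = 4.29e-05). Nr4a1 was at 67.9, 90.9 and 84 TPM against 1728, 1482 and 1265 TPM (-4.47 ± 0.56, adjusted p = 4.53e-06). Egr3 showed the largest difference of the list, at 4.53, 9.79 and 11.7 TPM against 604, 490 and 452 TPM (-6.22 ± 0.54, adjusted p = 6.13e-08). Jun was below the threshold, at 242, 199 and 272 TPM against 513, 563 and 478 TPM (-1.39 ± 0.39), and the chaperone Hspa8 was higher in the SGNs by less than 4-fold (0.85 ± 0.17). The share of handling in these levels was not tested.

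Genes with mt- symbols and ribosomal protein genes were left out of the ranking of common genes by level. The most abundant of the rest were the pseudogene Gm29216 and the lincRNA Gm26917. Leaving out went by symbol, so mitochondrial or ribosomal RNA reads counted on other genes, these 2 included, were not removed. The median level of the 1297 common genes, averaged over the 6 libraries, was 57.1 TPM. Eef1a1 (9:78478449-78489151, GRCm38), the translation elongation factor, was at 2387, 2168 and 2437 TPM in the SGNs and at 1815, 1711 and 1678 TPM in the glia, with a log2 fold change of 0.16 and a 95% interval of -0.16 to 0.48. Ywhae, a 14-3-3 protein, was at 1889, 1892 and 1643 TPM against 1740, 1389 and 1245 TPM (interval -0.31 to 0.36). Actb was at 1623, 2232 and 1737 TPM against 1894, 2192 and 2450 TPM (interval -0.78 to -0.11), so beta-actin lay within 2-fold while its interval did not hold 0. It was not common without SGN replicate 2. The kinesin Kif1a, known for transport of synaptic vesicle precursors in axons, was common at 300, 279 and 259 TPM against 286, 305 and 289 TPM (interval -0.65 to -0.01), although it was above the glia by 1.17 in P8 SGNs.

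Other abundant common genes were Eef2, Hsp90ab1, Ywhaz, Sod1 and Atp5b, of which Ywhaz was not common without glial replicate 1 nor Sod1 without glial replicate 2. Hsp90ab1 encodes a constitutive chaperone and was at 3015, 2140 and 3111 TPM against 2068, 1349 and 1435 TPM (interval 0.14 to 0.77), a common gene that lost this status without glial replicate 1. Atp5b, a chain of the mitochondrial ATP synthase, was at 1106, 912 and 1050 TPM against 942, 687 and 613 TPM (interval -0.23 to 0.55), and in P8 SGNs it stood 1.76 above the glia. Gm10736 is also annotated as a pseudogene, and reads of near copies elsewhere in the genome could be counted on it and on Gm29216 and Gm26917.

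**Figure D5:**
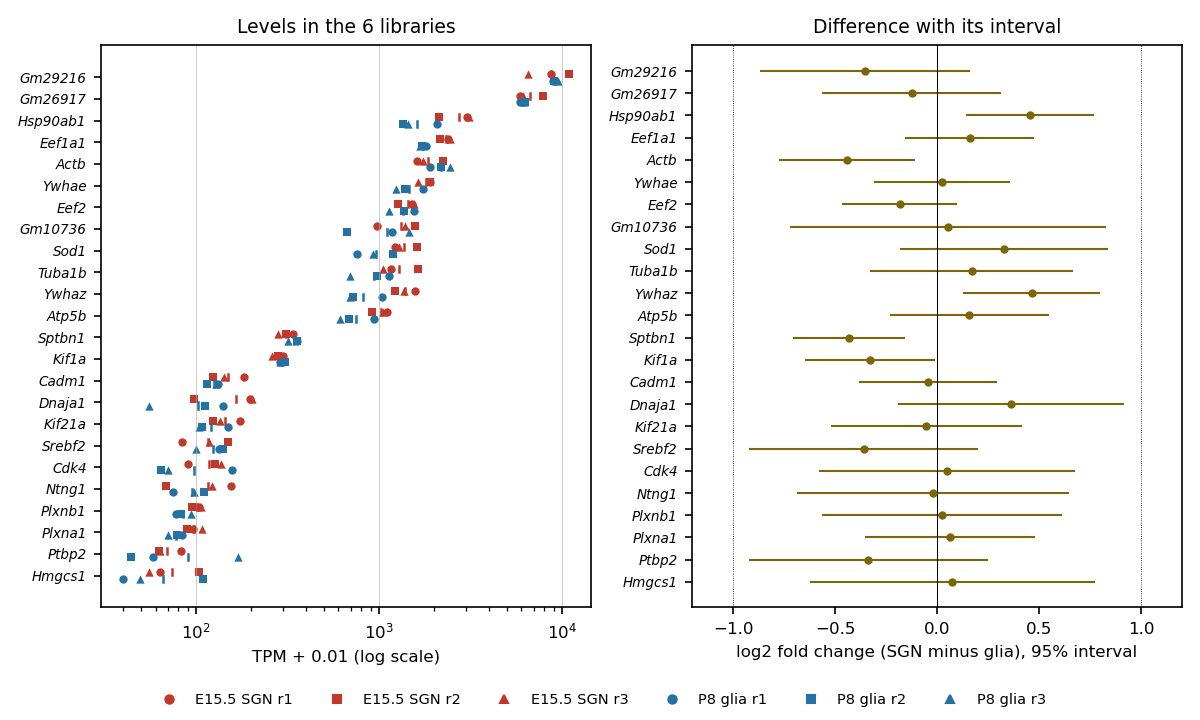
Levels as TPM + 0.01 (log scale, left) of 24 common genes in the 6 libraries, with bars at group means, and the log2 fold change of each with its 95% interval (right), where dotted lines mark 2-fold. Every interval lies between the dotted lines, and those of Hsp90ab1, Actb, Ywhaz, Sptbn1 and Kif1a do not hold 0.

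Ribosomal protein genes, which every cell uses, lay close to 0. Of 80 ribosomal protein genes 48 were common and none was called in either direction by limma, with a median log2 fold change of 0.02. At an unadjusted p under 0.05, 8 were higher in the SGNs and 4 in the glia, edgeR called 0, and DESeq2 called 0 in the SGNs and 1 in the glia. Rpl4 was at 1323, 874 and 1038 TPM against 1429, 891 and 905 TPM (interval -0.70 to 0.07). Of 14 mitochondrially encoded members 4 were common and none was called by limma, edgeR or DESeq2, with 3 higher in the glia at an unadjusted p under 0.05. In P8 SGNs these genes were above the same glia at a median log2 fold change of 1.16, whereas in E15.5 SGNs the median was -0.60.

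Cholesterol synthesis genes, which Schwann cells need for myelin, were centred near 0. All 23 were members, their median log2 fold change was -0.05, and their summed level was between 650 and 901 TPM in the SGNs and between 765 and 1025 TPM in the glia. None was called by limma in either direction. At an unadjusted p under 0.05, 4 were higher in the SGNs and 7 in the glia, and edgeR and DESeq2 each called 1 higher in the glia and 0 in the SGNs. Hmgcs1, which makes the precursor of mevalonate, was common at 63.4, 104 and 55.2 TPM against 40.1, 110 and 49.2 TPM (interval -0.62 to 0.77), and Srebf2, the regulator of the pathway, at 83.3, 150 and 117 TPM against 133, 140 and 99.4 TPM (interval -0.92 to 0.20). Hmgcs1 was not common without SGN replicate 2 or 3 or without glial replicate 1 or 2, nor Srebf2 without SGN replicate 2 or glial replicate 3. Leaving out 1 glial library gave 1 or 2 genes called higher in the glia.

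Protein-coding genes made up 11815 of the members, and 1338 (11.3%) of these were higher in the SGNs and 947 (8.02%) in the glia. The corresponding shares of noncoding classes are given as a description. Of 212 lincRNAs, 52 (24.5%) were higher in the SGNs and 25 (11.8%) in the glia, and of 259 antisense transcripts 69 (26.6%) and 20 (7.72%). Antisense transcripts share exons with a gene of the other strand, and reads of the partners cannot be told apart without the strand.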

How the data were processed

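Total RNA of hand-picked cells was amplified with the Ovation RNA-Seq V2 kit and sequenced. Per the submitters' processing notes, reads were mapped to mm10 with STAR 2.4.0i and assigned with featureCounts, and the deposited table holds the authors' raw counts per gene for 21 libraries, without normalization. The strand setting is not given in the sources used here, and of 610 list genes among the members 174 share exon bases with a gene of the opposite strand. Symbols and positions were taken from GENCODE M21 (GRCm38), which gave a symbol to 52403 of 52550 identifiers.

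A gene entered the fit when its CPM exceeded 1 in every library of at least 1 of all 7 groups. As in the study's methods, counts were normalized by TMM (edgeR 4.0.16), and group means of all 21 libraries were fitted with limma 3.58.1 (voom, R 4.3.3). P-values are two-sided moderated tests, Benjamini-Hochberg adjusted over the 17531 genes of the fit, and genes were called past 4-fold at an adjusted p of 0.01. TPM was computed from the counts and gene lengths over genes of at least 200 bases, a limit set after the data were seen because the short gene Gm23935 took between 53.1% and 68.1% of the length-scaled sum. No molecular identifiers are described, so intervals and limits cover counting error only. The fit was tested on simulated counts with known changes.

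Members and gene lists were chosen with earlier results of these data known. Genes were named as the 12 largest differences in each direction among called protein-coding genes with CPM over 10 in all libraries of the higher group, no overlap between groups and no exon overlap on the opposite strand, as the 12 common genes of highest mean TPM other than genes with mt- symbols and ribosomal protein genes, as up to 5 called genes in each direction and up to 4 common genes of a list, as markers, and as single list or promoter genes that a sentence needed, the last chosen after their values were seen. Alternatives were edgeR, DESeq2 1.42.0, other scalings and filters, sample quality weights, a fit of the 6 libraries, a replicate block, other thresholds and leaving out each library. Motifs were searched in RefSeq promoters of GRCm38.p6. Values of some named genes are not reported here.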

Additional observations from a re-analysis of the deposited data

Results flagged for a closer look

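Of 36 named genes tested for a difference between E15.5 and P8 SGNs by limma, 9 passed 4-fold and an adjusted p of 0.01, so that their distance from the same glia differed between the ages. All 9 were higher at E15.5 and were chosen among the largest differences of the E15.5 SGNs from glia. Their direction follows from this choice, which used the same E15.5 libraries and also shapes their number, size and p-values. Nothing about age is therefore read from the count of 9. Over all members, 2.88% were higher at E15.5 and 3.52% higher at P8 by the same thresholds. Dcx differed by 4.04 in log2 (adjusted p = 5.36e-08), from a mean of 452 TPM at E15.5 to 16.9 TPM at P8. Scn11a differed most, by 7.03 (39.5 against 0.649 TPM), followed by Gpc2 with 6.05 (14.1 against 0.208 TPM) and Ptgir with 5.20 (36.6 against 0.996 TPM). Zfp57 differed by 4.75 (108 against 2.65 TPM) and Stk32b by 4.02 (30.6 against 1.57 TPM). Csmd3, Nhlh2 and Psd2 showed smaller differences of 2.66, 2.42 and 2.04, with means of 20.8, 28.1 and 71.5 TPM at E15.5 and 1.76, 3.89 and 8.08 TPM at P8. The rest of these 36 genes did not pass both thresholds, which does not show that they were equal at both ages, and other genes described above are not among the 36.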

How the results depend on the processing

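With sample quality weights 850 genes were called, 304 higher in the SGNs and 546 higher in the glia, and 538 were common, which turned the balance of the directions. A fit of the 6 libraries alone, with fewer samples to estimate the spread, called 1576 (926 and 650) and left 358 common. A threshold of 2-fold at an adjusted p of 0.05 called 5131 genes, and a 99% interval left 583 common. Leaving out 1 library gave 1192 to 1820 genes higher in the SGNs, 830 to 1263 higher in the glia and 938 to 1348 common. The cause of these changes was not tested. Scaling by library size alone moved the median log2 fold change of the members from 0.12 to 0.34 and called 1957 and 902 genes. edgeR called 1354 and 867, and DESeq2 1716 and 1313. Same-numbered libraries did not deviate together (r of 0.00127, -0.00851 and -0.0173), and differently numbered ones gave r between -0.0198 and 0.0267. No pairing by number was seen, but values this small in all pairs cannot exclude one. The replicate block called 1728 and 1240 genes (2968 in all) with 1588 common. Of 180 called genes named, 100 kept their call in every setting and 124 in every setting other than the quality weights. By edgeR 34 of the 180 were not called, and by DESeq2 14 were not. Those missed by edgeR include Pirt, Gap43, Syp, Ntn1, Robo1, Notch2, Jag2, Hes6, Dlk2, Fabp7, Nes, Mki67, Top2a, Alas2 and Bhlhe22. Those missed by DESeq2 include Gap43, Robo1, Jag2, Top2a and Cdkn2d. Of 43 common genes named, 14 stayed common throughout. No called gene among these changed direction under any setting, while some that were not called did. At 10368240 to 19759856 counts a library, differences of genes near 3 counts could not be resolved.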
